A study of Mus musculus with 4 samples.

Results

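The regions described here are 660 stretches of mouse autosome that were accessible to DNase I in every library but stood higher in the order of accessibility in wild-type (WT) CD8+ T cells. They were chosen by measured values, the fold enrichments of deposited peaks, from 7949 autosomal regions called in all 4 libraries and from 38986 union regions in the series. The fold enrichment of a peak is the number of fragments at its summit over the local background, and the value is the authors'. Within each library the highest fold of each of the 7949 regions was turned into a percentile rank, from 0 for the weakest to 1 for the strongest. A region is a member when the lower of its 2 WT ranks exceeds the higher of its 2 double-knockout (DKO) ranks by at least 0.10. That difference is called the margin below.

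All mice carried hCD2-Cre, a Cre recombinase under the human CD2 promoter that acts in T cells, and Rosa26-lsl-GFP, a reporter that turns on in cells where Cre has acted. The WT group (2 libraries) had wild-type Tcf1 and Lef1 and the DKO group (2 libraries, genotype Tcf1-/-Lef1-/-) had both genes floxed. Splenic cells of the phenotype GFP+ TCRbeta+ CD62Lhi CD44lo-med CD8+, a naive T cell gate, were held for 72 h in the cytokines IL-7 and IL-15 before digestion. The labels give neither age nor sex. They also do not say that the replicates are different mice, so differences between 2 libraries of a genotype may be technical only. Genes at the regions, and so the defining markers of T cells, were not analysed here, because the gene tables used here are on another build than mm9, the build of the files.

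Tcf1 and Lef1 are related proteins with an HMG box, a domain that binds the minor groove of DNA and bends it. In T cells they are known for establishing and keeping the T lineage programme, and Tcf1 can act at sites where chromatin is closed. DNase I cuts where DNA is not wrapped in nucleosomes, so promoters, enhancers and sites of insulator proteins such as CTCF give peaks. A region that is called in both genotypes but ranks lower in DKO is one that kept a peak while its place among the other shared sites fell. Whether accessibility itself fell is a separate question, since ranks hold only the order.

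The 4 lists held between 11073 and 34788 peaks. Fragments at the summit of shared regions had medians of 24 (WT replicate 1), 20 (WT replicate 2), 45 (DKO replicate 1) and 27 (DKO replicate 2). Both DKO libraries had peaks on chromosome Y, 55 and 57, and neither WT library had any, so sex and genotype cannot be told apart in any comparison here. The rank order of WT replicate 1 was closer to those of DKO replicates 1 and 2 (Spearman's rho 0.66 and 0.63 across the 7949 regions) than to that of WT replicate 2 (0.60). The DKO replicates reached 0.72 with each other. These correlations are across regions of the same 4 libraries and are given as a description. With 2 libraries per genotype an exact two-sided permutation test cannot go below p = 0.33, and no test of single regions was made.

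Members made up 8.3% of the shared autosomal regions. Nearly as many regions, 662 (8.33%), met the same rule in the opposite direction, with both DKO libraries above both WT libraries. When the libraries were paired by replicate number, 432 regions (5.43%) ranked higher in both replicates 1 and 418 (5.26%) in both replicates 2. In the crossed pairing, 442 regions (5.56%) ranked higher in WT replicate 1 with DKO replicate 2, and 447 (5.62%) in WT replicate 2 with DKO replicate 1. Pairing by genotype thus gave 1322 regions over both directions, against 850 and 889. At a margin of at least 0.50 there were 26 regions higher in WT (0.327%), against 10 higher in DKO and 3 to 6 in each direction of the other pairings. With only 3 pairings these counts describe the libraries and are not a test of genotype. The order of the totals also rested on both DKO libraries being present. With DKO replicate 1 left out, the crossed pairing called 3092 regions and genotype 2906, and with DKO replicate 2 left out, pairing by replicate number called 3324 and genotype 2835. With WT replicate 1 or 2 left out, genotype called the most, 3783 and 4606.

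**Figure D1:**
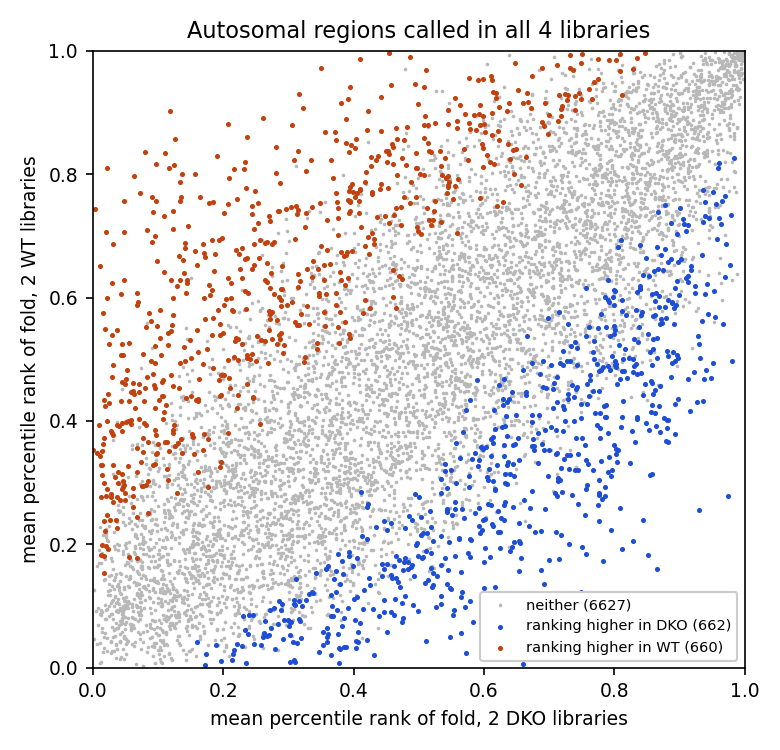
Mean percentile rank of fold in the 2 DKO libraries (x axis) against that in the 2 WT libraries (y axis) for the 7949 autosomal regions called in all 4 libraries. Each point is 1 region; the 660 members are orange, above the diagonal, and the 662 regions ranking higher in DKO are blue, below it, which the rule fixes.

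**Figure D2:**
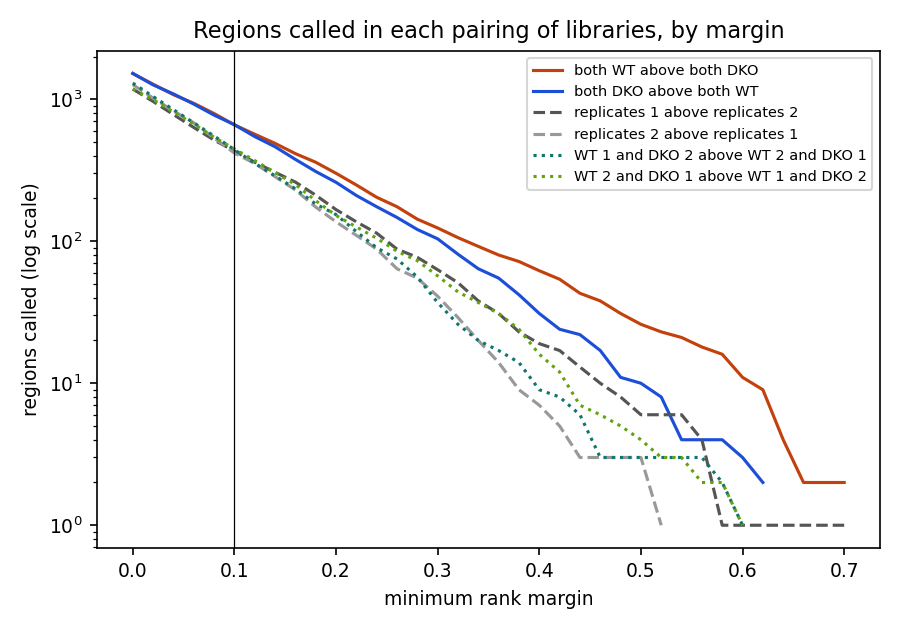
Number of regions (y axis, log scale) whose ranks in a pair of libraries exceed those in the other pair by at least the margin on the x axis, for each direction of the 3 pairings; the vertical line marks 0.10. At 0.10 the genotype lines stand at 660 and 662 and the others between 418 and 447, and at 0.50 the WT line stands at 26 and the DKO line at 10.

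Most members moved a moderate way through the order. The margin had a median of 0.19 and quartiles of 0.14 and 0.27. It lay below 0.20 in 359 members, from 0.20 to below 0.30 in 177, from 0.30 to below 0.50 in 98 and at 0.50 or more in 26. In the WT libraries the members' median ranks were 0.65 and 0.67, and in the DKO libraries 0.27 and 0.25. In 224 members both WT ranks were over 0.50 and both DKO ranks under 0.50. A further 116 stayed under 0.50 and 98 stayed over 0.50 in all 4 libraries. Only 6 had both WT ranks over 0.75 and both DKO ranks under 0.25. The gap between the ranks of the 2 WT replicates had a median of 0.10 in members and 0.16 over all shared regions, and for DKO 0.077 and 0.13. Those smaller gaps follow from the rule, which asks replicates to lie on the same side.

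The members next to the threshold show how little separates its sides. Just inside, chr18:74375461-74375908 had ranks of 0.794 and 0.719 in WT and 0.619 and 0.430 in DKO replicates 1 and 2. The other members nearest to the threshold were chr16:84735440-84735700, with 0.930 and 0.913 in WT and 0.718 and 0.812 in DKO, and chr2:29949148-29949524, with 0.935 and 0.907 in WT and 0.807 and 0.692 in DKO. Just outside, chr15:79376950-79377434 had 0.427 and 0.538 in WT and 0.327 and 0.295 in DKO. It was followed by chr11:86497256-86497606, with 0.263 and 0.220 against 0.121 and 0.074, and chr2:91675280-91675616, with 0.520 and 0.710 against 0.420 and 0.289. The regions just inside stood higher in the order than those just outside, while the margins of all 6 were close to 0.10. None of the 3 just inside was called when ranked by −log10 p or by fragments, and the margin of the chromosome 18 region turned to -0.013 by fragments.

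On the scale of the folds themselves, few members were stronger in WT. For members the fold had a median of 8.42 in WT replicate 1, 7.47 in WT replicate 2, 10.8 in DKO replicate 1 and 7.58 in DKO replicate 2. Over all shared regions the medians were 7.53 and 6.62 (WT) and 13.2 and 9.60 (DKO). Folds therefore ran higher in the DKO lists over the shared sites as a whole, and the difference was smaller in the members. In 51 of the 660 members (7.73%) both WT folds exceeded both DKO folds, a condition met by 61 of all 7949 shared regions (0.767%). The rule for members used the same folds, so this share is a description. Folds are set against each list's own background and are compared across lists here only to show what the ranks do not.

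The number of fragments at the summit was solved from the fold and the p-value of each peak. Since the folds chose the members, the fragments are no separate observation, and their order largely follows from the rule. Members had medians of 27 and 22 fragments in WT replicates 1 and 2, above the 24 and 20 of all shared regions. In DKO replicates 1 and 2 they had 35 and 20, below the 45 and 27 of all shared regions. The local background of members was close to that of all shared regions in WT, at 2.24 and 2.02 fragments per position against 2.29 and 2.06. In DKO it was 2.22 and 1.68 against 2.41 and 1.83. When regions were ranked by fragments at the summit in place of fold, 442 of the 660 members (67.0%) kept a margin of at least 0.10, and by −log10 p 543 (82.3%) did. The regions higher in DKO, chosen on the same folds in the opposite direction, had medians of 21 and 16.5 fragments in WT and 50 and 32 in DKO.

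**Figure D3:**
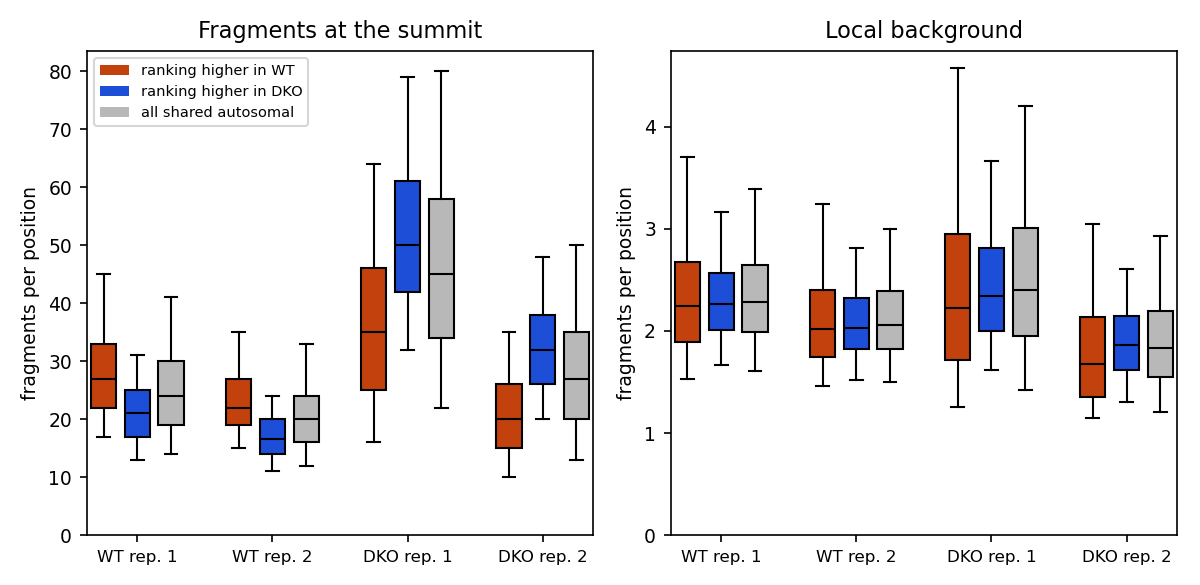
Fragments at the summit (left) and local background (right), both in fragments per position, in each of the 4 libraries for the members (orange), the regions ranking higher in DKO (blue) and all shared autosomal regions (grey). Boxes span the quartiles with the median as a line, and whiskers run from the 5th to the 95th percentile over regions. Members have medians of 27 and 22 fragments in WT and of 35 and 20 in DKO, against 24, 20, 45 and 27 for all shared regions.

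The largest margins of the other pairings were 0.726 (replicates 1 above replicates 2), 0.532 (replicates 2 above replicates 1), and 0.611 and 0.604 (crossed). Among members the largest margin, 0.719, belonged to chr15:100428782-100429063, a region of 282 bp. Its fold was 9.14 in WT replicate 1 and 9.13 in WT replicate 2, and it was 6.47 and 4.85 in the DKO replicates. These rested on 30, 27, 14 and 10 fragments at the summit. Its ranks of 0.743 and 0.878 in WT fell to 0.024 and 0.019 in DKO, so it went from the upper part of the WT order to near the bottom of the DKO order. The summits in the 4 libraries lay within 13 bp of each other.

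The region chr2:165715975-165716252 had folds of 12.1 and 8.92 in WT and 8.09 and 6.72 in DKO, with 44, 31, 24 and 18 fragments. Its WT replicates differed more than those of the chromosome 15 region, and its margin was 0.70. At chr13:107846539-107846740 the folds were 9.82 and 8.35 in WT and 9.25 and 6.004 in DKO, with a margin of 0.65. Here the fold of DKO replicate 1 lay between the WT folds, while its rank was 0.147 against 0.820 and 0.801. The fold of DKO replicate 1 also lay between the WT folds at chr5:105568532-105568828, with folds of 9.66 and 8.63 in WT and 9.62 and 4.90 in DKO and a margin of 0.63. Its DKO replicate 1 had 35 fragments at the summit, more than the 29 and 27 of WT, beside a local background of 2.74 against 2.11 and 2.24.

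Chromosome 19 held 2 of the 10 largest margins. The widest of the 10, chr19:3731117-3731641 at 525 bp, had folds of 8.76 and 7.54 in WT and 6.73 and 5.12 in DKO and a margin of 0.65. Its summits spread over 280 bp, so the libraries may not have peaked at the same point within it. At chr19:14769879-14770186 the folds were 8.998 and 8.45 in WT and 7.71 and 5.95 in DKO, with a margin of 0.64. Both regions had all WT folds above all DKO folds.

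Of the 10 regions, chr10:20955104-20955321 had the lowest mean DKO fold. Its folds were 10.1 and 7.29 in WT and 4.95 and 4.19 in DKO, with 32, 20, 11 and 8 fragments and a margin of 0.64. The smallest fold in each deposited list lay just above 4, so its DKO peaks stood near the listing limit. A similar drop was seen at chr4:130330778-130331016, with folds of 8.35 and 7.43 in WT and 5.77 and 4.499 in DKO and a margin of 0.62. The remaining 2 of the 10 lay on chromosome 1. At chr1:87511173-87511459 the folds were 9.27 and 9.57 in WT and 6.67 and 6.48 in DKO, with a margin of 0.63, and 20 other union regions lay within 50 kb. At chr1:43945341-43945608 they were 8.68 and 9.55 in WT and 7.80 and 5.59 in DKO, with a margin of 0.62. Over the 10 regions, 8 had both WT folds above both DKO folds, and 9 had more fragments at the summit in both WT libraries than in either DKO library. The order of fragments was met by 78 of all 7949 shared regions (0.981%) and by 58 of the 660 members, and the 10 were picked for their margin, so nothing is read from it.

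**Figure D4:**
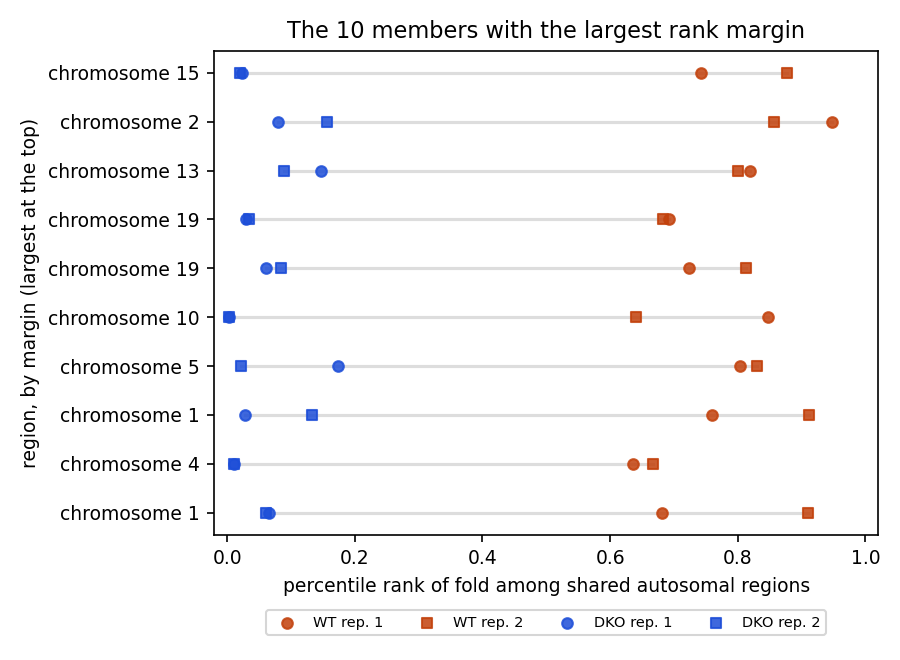
Percentile rank of fold (x axis) in WT replicates 1 and 2 (orange) and DKO replicates 1 and 2 (blue) for the 10 members with the largest margin, 1 row per region named by its chromosome. WT ranks lie between 0.636 and 0.948 and DKO ranks between 0.003 and 0.173.

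These fragment numbers are small, and with lists cut to equal length none of the 10 regions was called in all 4 lists. The 30 fragments of WT replicate 1 at the chromosome 15 region have a 95% exact Poisson interval of 20.2 to 42.8, which corresponds to ranks from 0.261 to 0.966. The 10 fragments of DKO replicate 2 have one of 4.80 to 18.4, up to a rank of 0.369. The intervals of that region's WT and DKO ranks thus overlapped. Such an interval covers counting error only, with the background held fixed, and takes fragments as independent. Over all shared regions, 14 (0.176%) had both WT intervals above both DKO intervals, and 10 of these were members. None of the 10 largest margins was among them. Of the 10 members, 8 had an unusually high local background and are described further on. The 4 that were not members had such a background too, and all lay in the chromosome 9 window described there. In the opposite direction 1 region had separated intervals, and in each direction of the other pairings 0 did.

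The other 2 members with separated intervals were among the strongest of the WT order. The region chr11:53954033-53954192, 160 bp wide, had folds of 18.5 and 21.9 in WT and 12.1 and 9.78 in DKO. It rested on 52 and 55 fragments in the WT replicates and on 26 and 20 in the DKO ones. Its ranks were 0.995 and 0.997 in WT and 0.388 and 0.521 in DKO, a margin of 0.47, and its 4 summits lay within 6 bp. The 2 WT libraries lay at the top of their order, and both DKO libraries near the middle of theirs. At chr10:21862733-21862857, 125 bp wide, the folds were 18.2 and 18.3 in WT and 15.4 and 12.7 in DKO, from 69, 62, 47 and 36 fragments. Its margin was smaller, 0.19, since its DKO ranks were still 0.692 and 0.809.

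Of the other members at the top of the WT order, chr2:181652334-181652457 had folds of 20.2 and 17.0 in WT and 16.1 and 13.7 in DKO, with a margin of 0.13. It had the highest lower WT rank of all members, 0.995. With peaks merged within 500 bp its margin turned to -0.0018, and without WT replicate 2 it was 0.090, so that both ended the call. At chr13:3372303-3372590 the folds were 22.1 and 13.3 in WT and 14.3 and 13.6 in DKO, with a margin of 0.12, and of 0.092 without WT replicate 2. There the folds of WT replicate 2 and of both DKO libraries were alike, and WT replicate 1 stood apart. The fifth of this group lay in the chromosome 9 stretch described next.

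A small set of members lay where the local background was far above the usual 2 fragments per position. In 28 shared regions (0.352%) the background exceeded 10 in at least 1 library, and 10 of them were members. All 18 shared regions of the window chr9:3000001-3100000 were in that set, between 3000011 and 3038058, and 7 were members, the most of any 100 kb window. This grouping was present in the fold ranks only among the 3 measures ranked. By −log10 p the margins of the 7 ran from -0.00038 to 0.0031 and by fragments from -0.0013 to 0.00025, so none was called by either. The 7 held 72 to 458 fragments in WT and 85 to 584 in DKO. The upper quartiles of all shared regions were 30 and 24 (WT) and 58 and 35 (DKO). In WT their −log10 p was at least 45.4, against medians of 17.2 and 13.4. In DKO replicate 2 it was at least 61.9, against a median of 22.4. In DKO replicate 1 the median was 40.9, and chr9:3037911-3038058 lay below it at 39.6, with the others at 74.5 or more. By these measures the lower WT rank and the higher DKO rank of each member were nearly equal. Why the calls were lost was not tested, and nothing about the genotypes is read from it. The background at these 7 members ran from 5.91 to 74.5 fragments per position. At chr9:3017064-3017205 the folds were 9.53 and 9.80 in WT and 7.40 and 7.16 in DKO, with a margin of 0.59. Its fragments at the summit ran the other way, 145 and 105 in WT and 172 and 166 in DKO, beside a local background of 14.3 and 9.81 (WT) and 22.4 and 22.3 (DKO).

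The order of fragments and background was shared by nearly the whole chromosome 9 group. In 6 of the 7 members both DKO libraries had more fragments at the summit than both WT libraries, and in all 7 both had a higher background. The background order held in all 18 shared regions of the window, so it was not particular to the members. The fragment order held in its non-members too, except chr9:3006735-3006904 and chr9:3024380-3024565. Over all 7949 shared regions these orders were met by 4555 (57.3%) and 260 (3.27%), and over the 660 members by 37 and 20. At chr9:3015276-3015452 the folds were 13.6 and 16.6 in WT and 11.4 and 9.58 in DKO, with a margin of 0.48. At chr9:3024075-3024218, the exception in fragments, there were 419 and 409 in WT and 358 and 368 in DKO, and the folds were 6.90 and 8.11 against 4.76 and 5.06. The other 4 had margins of 0.37 at chr9:3037911-3038058, 0.33 at chr9:3000313-3000639, 0.24 at chr9:3029754-3029867 and 0.14 at chr9:3032407-3032527. The last had ranks of 0.995 and 0.996 in WT and 0.836 and 0.857 in DKO. A pair of members on chromosome 2, chr2:98502397-98503118 and chr2:98505193-98505369, had the highest background of all members, from 294 to 355 fragments per position. Their margins were 0.27 and 0.33. The remaining member of the set was chr15:74916686-74916952, with a margin of 0.24. Leaving the 28 regions out and ranking the rest again gave 654 members, 650 of them among the 660.

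**Figure D5:**
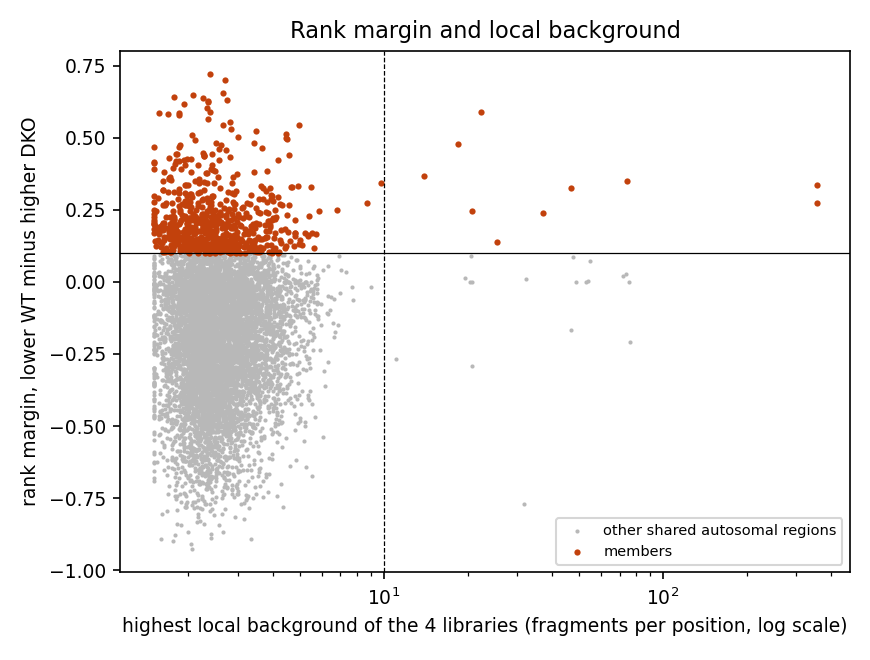
Margin (y axis) against the highest local background of the 4 libraries in fragments per position (x axis, log scale) for shared autosomal regions, with members in orange. The horizontal line marks the margin of 0.10 and the dashed line a background of 10; 10 members lie to the right of it.

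At other places with several members no background exceeded 10. The window chr8:19900001-20000000 held 4 members among 11 shared and 46 union regions, with backgrounds from 1.15 to 5.02. The background was raised at chr8:19920524-19920654, at 4.51 and 5.02 in WT against medians of 2.29 and 2.06 over all shared regions. The strongest of the 4 members, chr8:19997980-19998140, had folds of 9.60 and 10.9 in WT and 5.38 and 8.85 in DKO, with a margin of 0.39. The other members there, at 19920524 to 19920654, 19963144 to 19963374 and 19971374 to 19971524, had margins of 0.15, 0.15 and 0.10. Ranked among regions with −log10 q of at least 5 in every list, these 3 had margins of 0.038, 0.086 and 0.067 and were not called. In chr18:42100001-42200000 all 3 shared regions were members. They lay at 42110823 to 42111159, 42139262 to 42139599 and 42170664 to 42170863 and had margins of 0.46, 0.34 and 0.21. The first had folds of 11.5 and 7.47 in WT and 8.53 and 7.25 in DKO, so that the fold of WT replicate 2 lay between those of DKO. In chr13:22100001-22200000, 3 of 5 shared regions were members, with margins of 0.20, 0.15 and 0.15. The margin of the last was 0.098 by −log10 p and 0.057 by fragments, under the threshold. They started at 22107533, 22118342 and 22134834, and the fold of DKO replicate 1 was the highest of the 4 at each.

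Members occurred on every autosome. Their share of the shared regions ran from 6.06% on chromosome 12 (18 of 297) to 11.3% on chromosome 9 (50 of 444). Without the high-background regions the share on chromosome 9 was 10.1% (43 of 425), and the highest was 10.9% on chromosome 1 (59 of 540). Chromosome 11 had 40 members of 658 shared regions (6.08%) and a larger share ranking higher in DKO, 10.6%. Chromosome 1 stood the other way, with 6.47% ranking higher in DKO. Chromosome 14 resembled chromosome 11, with 6.43% members and 10.8% ranking higher in DKO. Chromosome 15 had 9.62% members together with the highest share ranking higher in DKO, 11.2%. These shares were not tested, since regions are not replicates.

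In form, members were somewhat narrower than shared regions at large. Their union width had a median of 302 bp (quartiles 237 and 381), against 320 bp (256 and 402) for all shared regions and 319 bp for the regions higher in DKO. By library, the median peak width of members was 211 and 183 bp in WT replicates 1 and 2 against 217 and 191 bp over all shared regions. In DKO it was 256 and 200 bp against 272 and 232 bp. In 634 members (96.1%) each library had exactly 1 peak, against 94.5% of all shared regions. The summits of the 2 WT libraries lay a median of 13 bp apart in members and 19 bp apart over all shared regions, and those of the 2 DKO libraries 16 and 14 bp apart. For regions higher in DKO these distances were 24 and 10 bp. Width and summit position come from the same peaks as the folds, and are given as a description.

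Members lay somewhat closer to their nearest union region than shared regions at large. The median distance was 5.43 kb for members, 7.22 kb for all shared regions and 8.06 kb for regions higher in DKO. Without the high-background regions it was 5.58 kb for members and 7.23 kb for all shared regions. Within 50 kb, members had a mean of 5.53 other union regions, against 4.90 for all shared regions and 4.90 for regions higher in DKO, and without the high-background regions the mean for members was 5.37. A region called in both DKO libraries and in no WT library lay within 50 kb of 317 members (48.0%), against 47.2% of all shared regions. A region called in both WT libraries and in no DKO library lay near 23 members (3.48%), against 185 of all shared regions (2.33%) and 13 of those higher in DKO (1.96%). Of the shared regions lying 10 to 50 kb from a member, 62 of 535 (11.6%) were members themselves, and 53 of 513 (10.3%) without the high-background regions. Of the shared regions with any shared neighbour at that distance, 8.21% and 8.05% were members. The order was not the same at every distance. At 2 to 10 kb, 18 of 131 (13.7%) were members against 10.7%, but without the high-background regions 10 of 114 (8.77%) were, against 102 of 1020 over all shared regions. At 50 to 100 kb the shares were 9.36% and 8.29%, and at 500 to 1000 kb 7.28% and 7.83%. MACS2 can take the local background from a window wider than a peak, so the folds of near neighbours may share it, and these shares are a description.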

How the data were processed

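DNase-seq peaks of 4 libraries (2 WT, 2 DKO; groups from the sample titles) were used as deposited, 1 list per library. Per the submitters' processing notes, tools were FastQC, Bowtie2 2.2.5 and MACS2 2.1.1, with the build mm9. Caller settings, any control library and duplicate handling were not given in the sources used here. For each peak the authors deposited a fold enrichment (a ratio), the −log10 p, the −log10 q and a score of 10 times the −log10 q. Positions were converted to count from 1.

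Peaks overlapping by at least 1 bp were merged, and the highest fold per region and library was ranked among the 7949 autosomal regions called in all 4 lists, with ties averaged. Fragments at the summit and local background were solved from the fold, (fragments + 1)/(background + 1), and the Poisson p. Both were met within 0.01 in −log10 p for 99.9943, 99.991, 99.9971 and 99.9953% of peaks in WT 1, WT 2, DKO 1 and DKO 2. The scripts were tested on simulated data. Members and lists were chosen with earlier results of these data known. The regions named are the 10 of largest margin, the 5 of highest lower WT rank, 3 on each side of 0.10 and the members of 100 kb windows with at least 3. The remaining members of high background were named after their values were seen. Alternatives covered margin, ranking measure, a −log10 q minimum, merging, chromosomes, list length and leaving out each library. Planned gene lists, motifs and markers need mm9 genes or sequence and were not analysed here. Python 3.11.15, pandas 2.3.3, numpy 2.4.6, scipy 1.17.1 and matplotlib 3.10.9 were used.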

Additional observations from a re-analysis of the deposited data

Results flagged for a closer look

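Peaks on chromosome Y numbered 55 and 57 in the DKO replicates, and neither WT library had any. They lie outside the autosomal comparison. Their part in the autosomal ranks was not tested.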

How the results depend on the processing

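The count of 660 members stayed within 1.5 times (469 to 713 for either direction) when regions were ranked by −log10 p or fragments, at −log10 q of at least 5, when merged within 500 bp, on all chromosomes, at equal list length, with 1 peak per library and without high background. Membership moved more than the count: at equal list length 316 of the 660 (47.9%) were called. None of the 10 of largest margin was called in all 4 of these shortened lists, so none could be ranked there. At −log10 q of at least 5 the same held for chr15:100428782-100429063, chr19:3731117-3731641, chr10:20955104-20955321, chr5:105568532-105568828 and chr4:130330778-130331016. At a margin of 0.05 there were 1003 regions higher in WT and 1003 in DKO, with 1467 by replicate number and 1494 crossed. At 0.20 these were 301, 260, 304 and 306. Ranking was also replaced by the folds themselves, a setting added after seeing the data like the one without high background. There, 61 were higher in WT, 6116 in DKO, 1220 by replicate number and 552 in the crossed pairing. Leaving out each library, which relaxes the rule, gave 1436 to 2237 higher in WT, 1399 to 2369 in DKO, 2466 to 4104 by replicate number and 2784 to 3517 crossed. With the replicate number as a block, the difference taken within each number, 998 were higher in WT and 1000 in DKO. The labels do not say whether libraries of the same number share a source. Rank differences between replicates correlated at -0.0065 across regions between the genotypes, which cannot decide this. The margins of the 37 named regions, 3 of them just outside the threshold, gave 522 values. These include the settings of 0.05 and 0.20, which cannot alter a margin. A region no longer called in every list under a setting has no value there. The sign changed in 8 of the 522 values. By −log10 p these were chr9:3032407-3032527 (-0.00038) and chr9:3000313-3000639 (-0.00025). By fragments they were chr18:74375461-74375908 (-0.013), chr9:3015276-3015452 (-0.00025), chr9:3017064-3017205 (-0.00063), chr9:3029754-3029867 (-0.00057) and chr9:3037911-3038058 (-0.0013). Merged within 500 bp it was chr2:181652334-181652457 (-0.0018). At the chromosome 9 regions the lower WT rank and the higher DKO rank were nearly equal by −log10 p and by fragments. The cause was not tested. The median width stayed between 252 and 320 bp. Settings for genes, GC content and motifs were not run. Fragment numbers of 8 to 44 at the largest margins limit the precision of single ranks.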
